A study of Drosophila melanogaster with 12 samples.

Results

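The effect of RNH treatment was examined in untreated S2 cells. This *Drosophila* line derives from embryos, and the untreated cells had received no dsRNA. The material comprised 2 RNH-treated and 2 RNH-untreated S9.6 libraries, a pair for each of 2 biological replicates, where the pair of a replicate carries a common run number. Genomic DNA of all libraries had been exposed to RNase A at 1 mg/mL. After sonication to fragments of 500 to 1000 bp, it was incubated with 6 U of RNH or left without it before immunoprecipitation with 4 μg of S9.6 antibodies, and both libraries of a replicate were set against the same input. The peak lists of these libraries held 1001 and 903 peaks after RNH treatment, in replicates 1 and 2, and 4016 and 3807 peaks without it. These are 9727 of the 25902 S9.6 peaks in the 8 lists of the series, and the remaining 16175 were called in S2 cells depleted of the linker histone dH1 by RNAi. RNH was applied to purified DNA and not to living cells.

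R-loops hold a DNA:RNA hybrid beside a displaced DNA strand and arise mainly at transcribed sites. The S9.6 antibody binds the DNA:RNA hybrid, whereas RNH cuts the RNA strand of the hybrid, so treating the DNA with RNH before immunoprecipitation is the usual control of a DRIP experiment. S9.6 signal that disappears is attributed to hybrids. The peak lists do not tell what the signal stands for at a site where a peak persists. In *Drosophila*, pericentromeric heterochromatin is rich in satellites and transposons. In the dm3 build, assembled heterochromatin is held in the sequences 2LHet, 2RHet, 3LHet, 3RHet, XHet and YHet (Het sequences), U joins scaffolds not placed on a chromosome, and Uextra joins small scaffolds that are mostly repetitive. A read was kept at all of its alignment sites, up to 10000, so that copies of an element share reads and their peaks are not independent.

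Peaks were sorted by overlap of at least 1 bp between the lists of the same replicate. An RNH-untreated peak was kept when an RNH-treated peak overlapped it and lost otherwise, and an RNH-treated peak without an RNH-untreated counterpart was called only after RNH. The lists give for each peak its position and a MACS score, given as the negative log10 of its *p*-value multiplied by 10, and they hold no read counts. Depth is therefore unknown, and a peak that is not called in a library cannot be told apart from a peak that is missed at lower depth.

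After RNH treatment the number of peaks fell by 2.04 ± 0.05 on the log2 scale (SD, n = 2 replicates), by 2.00 in replicate 1 and by 2.08 in replicate 2. This comparison, like the others that give a mean of paired differences with its SD, went the same way in both replicates and reached the smallest *p* that 2 pairs allow, 0.5 (exact sign-flip test, 2-sided), so that none could pass a threshold. RNH-treated peaks covered 1449620 and 1179661 bp, against 6024743 and 5601856 bp of RNH-untreated peaks. The decrease was uneven along the genome. On the sequences of the chromosome arms, with 4 and X included, 100 and 76 peaks were called after RNH treatment, against 2624 and 2419 without it, and on Uextra 789 and 736 peaks were called after RNH treatment, against 1102 and 1120 without it. Peaks on the arms thus formed most of the lists without RNH and a small part of the lists after RNH.

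Only a minority of RNH-untreated peaks were kept. In replicate 1, 633 of 4016 peaks (15.8%) overlapped an RNH-treated peak, and in replicate 2 it was 576 of 3807 (15.1%). The kept share was 15.4% ± 0.45 (SD, n = 2), which left 3383 and 3231 lost peaks. The distinction rested little on the overlap rule. Kept peaks shared a median of 966 and 938 bp with an RNH-treated peak, the overlap spanned at least 50% of the peak in 98.3% and 98.8% of them, and the smallest overlaps were 13 and 7 bp. Among lost peaks, 61 and 60 (1.80% and 1.86%) had an RNH-treated peak within 1000 bp, the nearest at 2 and 8 bp.

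The share of peaks kept differed between the sequences that carry them. On the arms 58 of 2624 peaks were kept in replicate 1 (2.21%, Wilson 95% interval 1.71 to 2.85) and 45 of 2419 in replicate 2 (1.86%, 1.39 to 2.48). Intervals of this kind cover counting error only. The share was higher on Het sequences, with 13 of 141 (9.22%, 5.47 to 15.1) and 9 of 118 (7.63%, 4.06 to 13.9) peaks kept. On U it was 37 of 149 (24.8%, 18.6 to 32.3) and 29 of 150 (19.3%, 13.8 to 26.4). It was highest on Uextra, where 525 of 1102 (47.6%, 44.7 to 50.6) and 493 of 1120 peaks (44.0%, 41.1 to 46.9) were kept. The order from arms to Uextra was the same in both replicates. With the RNH-untreated list cut to as many peaks as the RNH-treated list, the mean shares were 8.84% on the arms, 40.3% on Het sequences, 40.0% on U and 67.5% on Uextra, so that Het sequences and U were no longer apart. In the full lists, the intervals of Het sequences and U overlapped in replicate 2 only. Het sequences, U and Uextra are grouped here as heterochromatic sequences by their place in the assembly, without a chromatin mark. The share of peaks on these sequences was 90.8% and 92.2% among kept peaks and 24.2% and 26.5% among lost peaks. The log2 odds of lying on these sequences were 4.98 ± 0.05 higher for kept than for lost peaks (SD, n = 2). Even so, in the full lists and by this overlap rule more peaks were lost than kept on each of the 4 kinds of sequence, with 577 and 627 lost peaks on Uextra. On Uextra this depended on the rule. The mean kept share there was 50.3% with peaks within 1000 bp counted as overlapping, and 67.5% in lists of equal size.

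**Figure D1:**
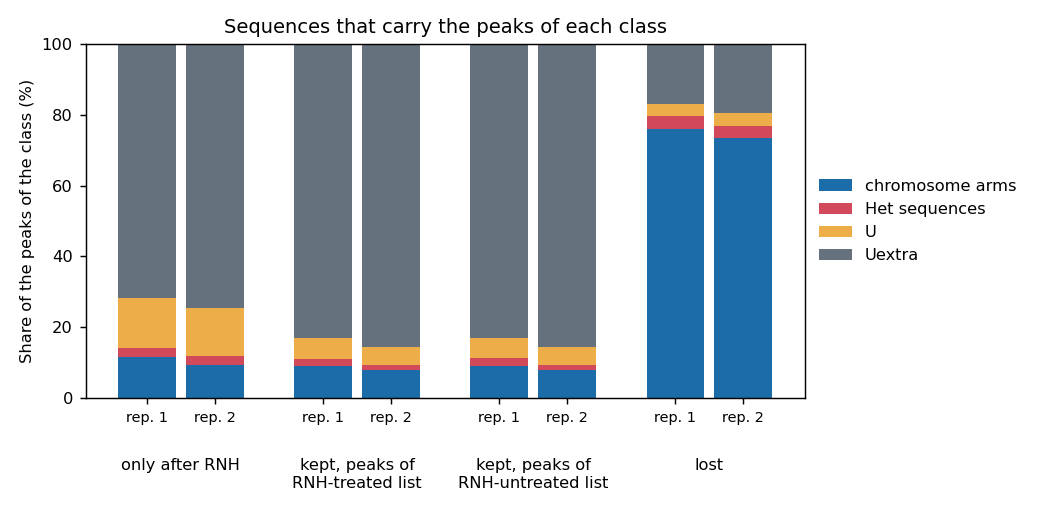
Share (%) of the peaks called only after RNH, kept and lost that lie on the chromosome arms, Het sequences, U and Uextra, in replicates 1 and 2. Uextra carries over 70% of the peaks called only after RNH and over 80% of the kept peaks, whereas the arms carry over 70% of the lost peaks.

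Between the arms themselves the kept share also varied. On 2L, 25 of 588 and 18 of 521 peaks were kept (4.25% and 3.45%), on X 11 of 337 and 9 of 311 (3.26% and 2.89%), and on 2R 12 of 494 and 6 of 448 (2.43% and 1.34%). The lowest shares were on 3L, with 5 of 609 and 6 of 579 (0.82% and 1.04%), and on 3R, with 5 of 594 and 6 of 559 (0.84% and 1.07%). Chromosome 4 had 2 peaks and 1 peak without RNH, none of them kept. The value of 2L came in large part from the run of peaks described below. Of the Het sequences, YHet kept 2 of 4 peaks in both replicates and 2LHet 0 of 8 and 0 of 7, numbers too small to order these sequences.

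Kept peaks ranked higher by score than lost peaks. The median percentile within the RNH-untreated list was 82.8 and 85.7 for kept peaks and 44.5 and 44.6 for lost peaks, a difference of 39.8 ± 1.96 percentile points (SD, n = 2). The difference was present on each kind of sequence. On the arms the medians were 88.8 and 87.4 for kept peaks and 42.4 and 42.1 for lost peaks, and on Uextra they were 81.3 and 85.6 for kept peaks and 54.4 and 54.6 for lost peaks. In the lower 5 score deciles 6.23% (125 of 2008) and 5.09% (97 of 1904) of peaks were kept, and in the upper decile it was 58.5% (235 of 402) and 62.2% (237 of 381).

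Within the same range of score deciles, peaks of different sequences were kept to different extents, although scores within a range were not matched between sequences. In the upper decile 27 of 160 and 20 of 125 arm peaks were kept (16.9% and 16.0%), 8 of 10 peaks of Het sequences in both replicates, 16 of 25 and 9 of 17 peaks of U (64.0% and 52.9%) and 184 of 207 and 200 of 229 peaks of Uextra (88.9% and 87.3%). In the lower 5 deciles the kept share was 0.60% and 0.21% on the arms and 29.9% and 23.6% on Uextra. The upper decile of the arms thus had a lower kept share than the lower deciles of Uextra, whose intervals (25.4 to 34.8 and 19.5 to 28.3) lay above that of the arms in replicate 1 (11.9 to 23.4) and overlapped it in replicate 2 (10.6 to 23.4). On Het sequences, few peaks were kept below the upper decile, with 2 of 84 and 0 of 69 in the lower 5 deciles and 3 of 47 and 1 of 39 in the next 4.

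**Figure D2:**
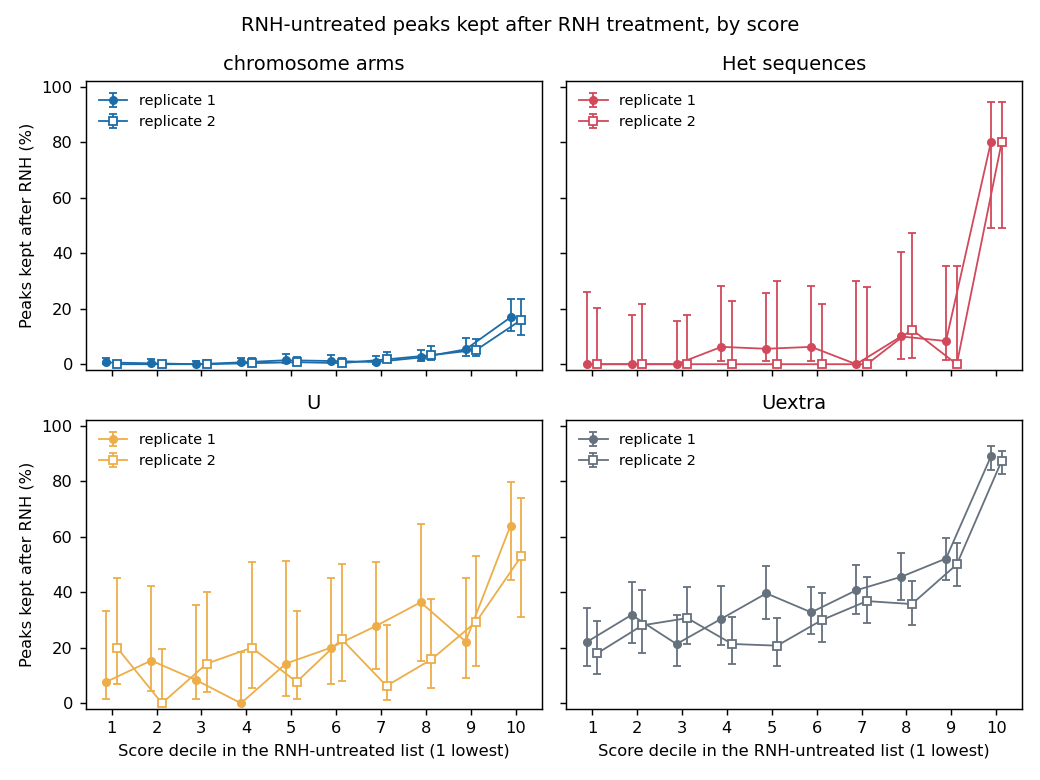
Share (%) of RNH-untreated peaks kept after RNH in each score decile of their list, by kind of sequence (circles, replicate 1; squares, replicate 2; bars, Wilson 95% intervals). On the arms it stays below 6% up to the ninth decile and is 16.9% and 16.0% in the upper decile, whereas on Uextra it is 22.0% and 18.0% in the lowest decile and 88.9% and 87.3% in the upper decile.

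Kept peaks were wider than lost peaks on the arms, on Het sequences and, by less, on U, but not on Uextra. On the arms kept peaks had a median width of 3865 and 3559 bp, and lost peaks one of 1280.5 and 1257 bp. On Het sequences it was 5101 and 5076 bp for kept peaks and 1218.5 and 1183 bp for lost peaks. On U it was 1405 and 1280 bp for kept peaks and 1103 and 1098 bp for lost peaks. On Uextra, made of short scaffolds, it was 1003 and 975 bp for kept peaks and 1017 and 1037 bp for lost peaks. Over all sequences, where most kept peaks lie on Uextra and most lost peaks on the arms, the log2 ratio of median widths of kept to lost peaks was -0.20 ± 0.01 (SD, n = 2), and it turned to 0.80 without Uextra and to 1.55 on the arms alone. Of arm peaks under 2000 bp 14 of 2150 (0.65%) and 14 of 1993 (0.70%) were kept, of those from 2000 bp to under 4000 bp 24 of 373 (6.43%) and 21 of 325 (6.46%), and of those of 4000 bp or wider 20 (19.8%) and 10 (9.90%). A single run of peaks on 2L, described below, holds 15 and 13 of the kept arm peaks. Without it, the median width on the arms was 2565 and 2191.5 bp for kept peaks and 1279.5 and 1254 bp for lost peaks, and 12 of 356 (3.37%) and 10 of 309 (3.24%) peaks from 2000 bp to under 4000 bp were kept. On Het sequences 8 of 14 and 5 of 11 peaks of 4000 bp or wider were kept.

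The same applies to the lists as a whole. The median width was 1082 and 1053 bp in RNH-treated lists and 1186.5 and 1162 bp in RNH-untreated lists, a log2 ratio of -0.14 ± 0.01 (SD, n = 2) that became 0.28 without Uextra and 0.96 on the arms alone. The parts of width and score in the kept share were not separated.

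**Figure D3:**
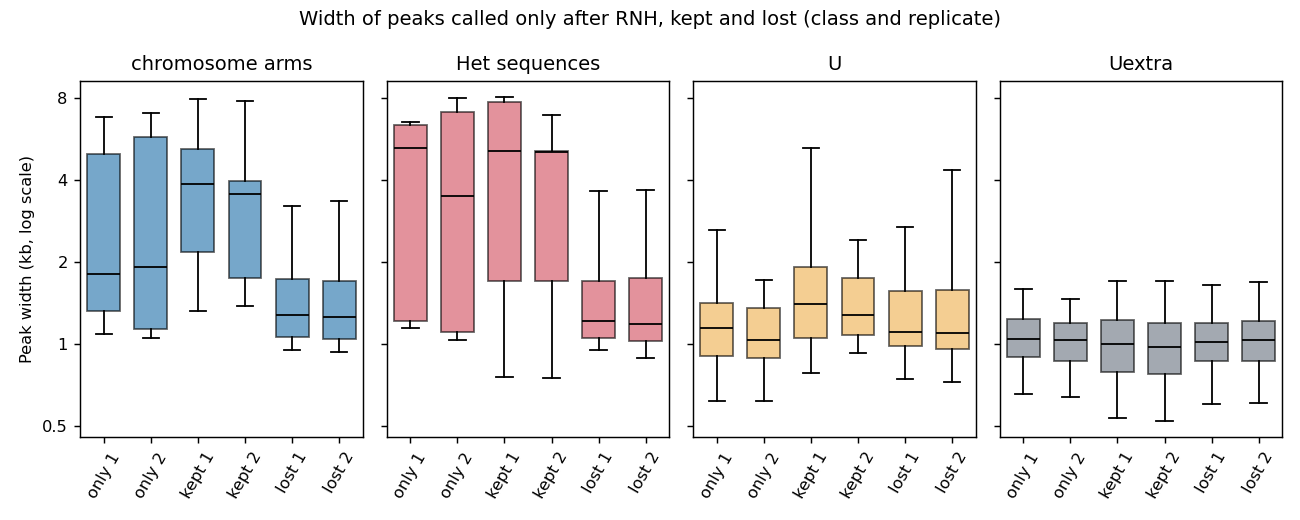
Width (kb, log scale) of peaks called only after RNH (only), kept and lost, by kind of sequence and replicate; lines are medians, boxes quartiles and whiskers the 5th and 95th percentiles. Kept peaks are wider than lost peaks on the arms (medians 3865 and 3559 bp against 1280.5 and 1257 bp) and on Het sequences, while the 3 classes overlap on Uextra.

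The replicates agreed on which peaks were kept. An RNH-treated peak of the other replicate, which played no part in the sorting, overlapped 529 of 633 kept peaks of replicate 1 (83.6%) and 528 of 576 of replicate 2 (91.7%). It overlapped 46 of 3383 (1.36%) and 103 of 3231 (3.19%) lost peaks. Over all RNH-untreated peaks these shares were 14.3% and 16.6%. The log2 odds of this overlap were 8.44 ± 0.10 higher for kept than for lost peaks (SD, n = 2). Agreement was lowest on the arms, where 31 of 58 (53.4%) and 29 of 45 (64.4%) kept peaks were found in the other replicate after RNH, against 459 of 525 (87.4%) and 463 of 493 (93.9%) on Uextra. It was not particular to kept peaks. Of all RNH-treated peaks, 43.0% and 56.6% on the arms overlapped an RNH-treated peak of the other replicate, against 84.4% and 90.9% on Uextra. The 2 replicates do not share an input, but peaks on copies of an element do share reads in each of them.

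To follow the same sites in both replicates, peaks were joined across the 4 lists, which gave 5152 regions. Both RNH-untreated lists had a peak in 2987 regions, where 494 (16.5%) were kept in both replicates, 2362 (79.1%) were lost in both and 131 (4.39%) were kept in only 1 replicate, 93 of them in replicate 1 and 38 in replicate 2. The regions with a different outcome had intermediate scores without RNH, with a median percentile of 71.7 and 74.0, against 86.8 and 87.7 for regions kept in both and 55.1 and 52.9 for regions lost in both. On the arms 27 of 1809 regions were kept in both replicates (1.49%) and 1744 were lost in both (96.4%). On Uextra 431 of 971 were kept in both (44.4%) and 458 were lost in both (47.2%). Het sequences had 9 regions kept and 81 lost in both, and U had 27 kept and 79 lost in both.

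Regions of very high score were among those lost. The region at 3L:2062179-2070091 (dm3) had a score of 3100 in both RNH-untreated lists, a value shared by the 3 peaks of highest score in each of these lists, and no peak in either RNH-treated list. Of the 5 regions within 50000 bp, itself included, 4 were lost in both replicates. The other was called only in the RNH-untreated list of replicate 2. This does not set the stretch apart, since 96.4% of arm regions called in both RNH-untreated lists were lost in both. Among the lost regions of this stretch, 3L:2046726-2061740 is the widest lost region of all (15015 bp), with scores of 886 and 260 without RNH. Another, 3L:2081597-2086030, had scores of 1680 and 1625. On 2R, regions at 11862574-11865341, 9552567-9555209 and 6460879-6464982 had scores of 1914 and 1949, of 1393 and 1226 and of 900.2 and 982 without RNH, and were not called after it. The lost regions of highest rank on U (1880638-1887200, 5767344-5772420 and 9953866-9954753) had scores between 446 and 661 without RNH, and those on Uextra (28107082-28108303 and 13271754-13273102) between 652 and 727. The median score of all lost peaks was 84.1 and 83.2 on the arms, and 97.8 and 97.9 on heterochromatic sequences as a group. Within this group it was 102.9 and 102.7 on Uextra and 92.6 and 95.2 on U. On Het sequences it was 81.2 and 74.2, lower than on the arms.

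Among regions kept in both replicates, the one that ranked highest on the arms by its score without RNH was X:2683158-2687687, with a score of 3100 in all 4 lists. In this ranking it was followed by 2L:626086-628422, with scores of 1364 and 1295 after RNH, against 1951 and 1879 without it, and by 3R:10488376-10491836, with scores of 3100 and 3100 after RNH, against 1345 and 1062 without it. The region 2R:2234119-2239593 had scores of 1326 and 944 after RNH, against 1040 and 849.5 without it. At X:2689659-2692614, next to the first of these regions, scores were 3100 and 3100 after RNH, against 867 and 728 without it. The score was therefore lower after RNH at some of these sites and higher at others. The score of 3100 was the highest of each of the 4 lists and was tied between different peaks. Equal scores at this value, and ratios that include it, are therefore uncertain.

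On Het sequences and Uextra both kinds were found as well. At 2RHet:3199042-3200926 scores were 3100 and 3100 after RNH, against 2673 and 2512 without it, and at 2RHet:2085998-2094337, the widest kept region of these sequences (8340 bp), they were 2169 and 1977 after RNH, against 1923 and 2128 without it. At 3RHet:1598452-1600191 they were 1481 and 1341 after RNH, against 1740 and 1913 without it. On Uextra, the region 28815942-28820482 had scores of 1440 and 825 after RNH, against 3100 and 3100 without it, and the region 3430153-3431479 had 1401 and 1441 after RNH, against 2642 and 2366 without it. The score of 3100 was reached by 6 peaks in each RNH-treated list. These were the same 6 sites in both replicates, all of them kept peaks, namely the regions of X, 3R and 2RHet with this score named above, X:5791963-5795439 and a site of Uextra.

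Scores of a pair of overlapping peaks cannot be compared as amounts, because the score grows with depth and carries no normalization between libraries. Taken as they are, the ratio of the score after RNH to the score without it had a median of 0.75 in replicate 1 (638 pairs) and of 0.69 in replicate 2 (583 pairs), and was below 1 in 63.9% and 66.2% of pairs. Over all sequences, widths of these pairs hardly differed, with a median ratio of 1.01 and 1.00. Most pairs lie on Uextra (529 and 500), however, and other sequences differed. On the arms the median width ratio was 0.95 and 0.84. The median score ratio was 0.48 and 0.45 on the arms, 1.16 and 0.93 on Het sequences (13 and 9 pairs) and 0.76 and 0.71 on Uextra. The direction of the score ratio was largely the same in both replicates. Of the 494 regions kept in both, 288 had a lower score after RNH in both replicates, 147 a higher score in both, and 59 differed between replicates or were tied. Across these regions the log2 ratios of the 2 replicates had a Pearson *r* of 0.89, given as a description, since regions on copies of an element share reads and both libraries of a replicate share an input.

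**Figure D4:**
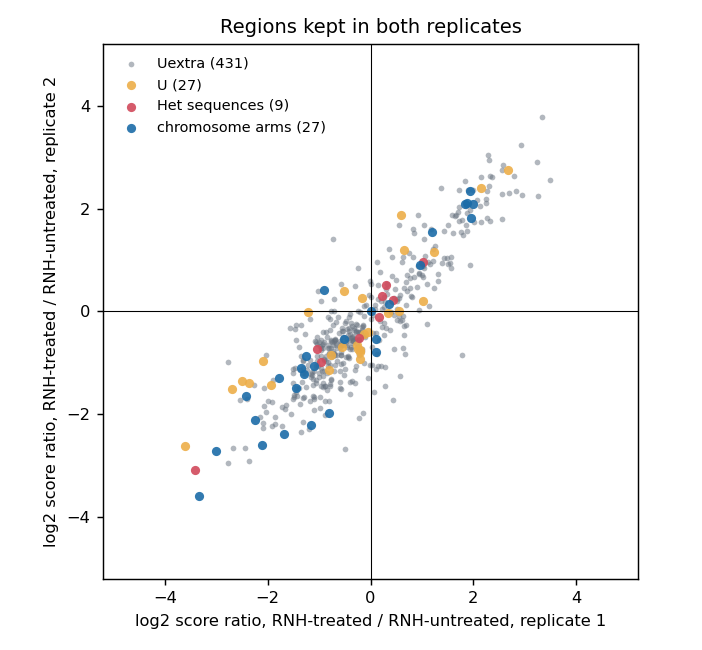
The log2 ratio of the MACS score after RNH to that without RNH in replicate 1 (x axis) and replicate 2 (y axis) for the 494 regions kept in both replicates, coloured by kind of sequence. Most regions lie in the lower left quadrant (288) or the upper right (147), so the direction of the ratio is mostly shared by the replicates.

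The 27 regions of the arms kept in both replicates differed in the same way. In 15 of them the score was lower after RNH in both replicates and in 8 it was higher in both. The lowest ratio was at 2L:19259675-19261443, with scores of 72.6 and 59.0 after RNH, against 733 and 708 without it. Apart from X:2689659-2692614, ratios over 3 in both replicates were found at X:21594966-21603006, with scores of 838 and 730.3 after RNH, against 219.8 and 145 without it, at 3L:24456389-24464510, with 2605 and 1995 after RNH, against 654 and 472 without it, at X:5791963-5795439, with 3100 and 3100 after RNH, against 841 and 720 without it, and at 3R:26899701-26907980, with 1201 and 588 after RNH, against 309 and 167 without it. The regions on 3L and 3R and the first of those on X had a similar width, of 8122, 8280 and 8041 bp. Ratios that include the tied top score of 3100 are uncertain. The regions of this paragraph were singled out after their values were seen.

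A run of kept peaks was found on 2L between 21421454 and 21534920. It was the only stretch of the arms where at least 3 regions kept in both replicates followed each other at distances of up to 50000 bp, and it held 7 of the 27 regions, including the widest (2L:21521281-21534920, 13640 bp, with highest scores of 121 and 126 after RNH, against 327 and 356 without it). No single peak of the run was wider than 4795 bp, so this widest region joins several peaks. Without RNH, 21 peaks were called in this stretch in each replicate, of similar width (3494 to 4119 bp and 3547 to 4114 bp) and evenly spaced, with a median distance between centres of 5059 and 5050 bp. In each replicate, 19 of 20 distances were between 4500 and 5500 bp. Of these peaks 15 and 13 were kept. After RNH, 14 and 13 peaks were called there, with a median score of 91.1 and 79.0, against 283 and 274.5 without RNH. A read that aligns to several units of a repeat is counted in each of them, so evenly spaced peaks may share reads. The histone genes of *Drosophila* form a tandem array on 2L. Whether the run lies on this array was not tested, since no gene positions of the dm3 build were used here. Without this run, 43 of 2603 and 32 of 2398 arm peaks were kept (1.65% and 1.33%).

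A part of the RNH-treated peaks was not called without RNH. In replicate 1, 377 of 1001 RNH-treated peaks (37.7%) had no RNH-untreated counterpart, and in replicate 2 it was 332 of 903 (36.8%). Of these, 39 and 41 had an RNH-untreated peak within 1000 bp. Their share of RNH-treated peaks was highest on U, with 53 of 90 (58.9%, 48.6 to 68.5) and 45 of 74 (60.8%, 49.4 to 71.1), and lower on Uextra, with 271 of 789 (34.3%, 31.1 to 37.7) and 248 of 736 (33.7%, 30.4 to 37.2). On the arms it was 44 of 100 and 31 of 76 (44.0% and 40.8%). Both lists had 2 peaks on chromosome 4, and neither had an RNH-untreated counterpart.

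Peaks called only after RNH lay mostly on the sequences grouped as heterochromatic, like kept ones. On these sequences lay 88.3% and 90.7% of them, with 71.9% and 74.7% on Uextra. Of the RNH-treated peaks that were kept it was 91.0% and 92.1%, with 83.0% and 85.5% on Uextra. The log2 odds differed by -0.35 ± 0.11 (SD, n = 2), and this direction was not stable, as it turned to 0.83 without Uextra, to 0.12 among peaks of score 100 and above, where the replicates went opposite ways, and to 0.30 with the RNH-untreated list cut to as many peaks as the RNH-treated list. Their rank was lower. The median percentile in the RNH-treated list was 41.2 and 39.5 for peaks called only after RNH and 55.8 and 57.0 for kept ones, a difference of -16.1 ± 2.06 percentile points (SD, n = 2). Its size depended on the sequences used, with -3.60 points without Uextra and -15.5 on the arms alone. Of the peaks called only after RNH on the arms, 13 of 44 and 10 of 31 were 4000 bp or wider (29.5% and 32.3%), against 20 of 56 and 9 of 45 of the kept arm peaks in the same lists (35.7% and 20.0%) and 81 of 2566 and 91 of 2374 of lost arm peaks (3.16% and 3.83%).

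Most of these peaks recurred in the other replicate after RNH, and few were called there without RNH. An RNH-treated peak of the other replicate overlapped 270 of 377 (71.6%) and 272 of 332 (81.9%) of the peaks called only after RNH, against 523 of 624 (83.8%) and 524 of 571 (91.8%) of the kept RNH-treated peaks. Over all RNH-treated peaks it was 79.2% and 88.2%. In contrast, an RNH-untreated peak of the other replicate overlapped 32 (8.49%) and 28 (8.43%) of the peaks called only after RNH, and 591 (94.7%) and 544 (95.3%) of the kept RNH-treated peaks. The sorting itself favours this difference. It used the RNH-untreated list of the same replicate, and 75.3% and 79.6% of RNH-untreated peaks overlapped one of the other replicate. Agreement after RNH was again lower on the arms (13 of 44 and 15 of 31) than on Uextra (213 of 271 and 209 of 248). The same held over all RNH-treated peaks, with 43.0% and 56.6% on the arms and 84.4% and 90.9% on Uextra. Of the 784 regions called in both RNH-treated lists, 494 (63.0%) were called in both RNH-untreated lists, 43 (5.48%) in 1 of them and 247 (31.5%) in neither. The regions called in neither comprised 191 regions of Uextra, 39 of U, 4 of Het sequences and 13 of the arms.

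Several regions called only after RNH in both replicates had high scores. At 3L:23729724-23731452 scores were 2001 and 1444 after RNH, with no peak in either RNH-untreated list. It was followed on the arms by 3L:20469637-20477934 (973 and 576), which is also the widest of these regions (8298 bp), by 4:817720-818845 (748 and 574), 3R:21068952-21070935 (424 and 387) and X:3308923-3315670 (513 and 219.6). Outside the arms, scores after RNH were 1772 and 1923 at U:2605405-2606693, 1317 and 1444 at U:9782676-9784027 and 1485 and 1313 at 2RHet:1328342-1329615. On Uextra they were 1362 and 1779 at 27514774-27516232, and 1424 and 1354 at 7727848-7729423. The minimum score of the lists is 50. The widest RNH-treated peak of all (17906 bp) was on U, at 5287994-5305899, and was called only after RNH in replicate 1.

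The lists of dH1-depleted cells, which were not used to sort the peaks, held the classes to different extents. These cells had received 100 μg of dsRNA over 8 days and their lists are separate libraries, so the values are given side by side. RNH-treated peaks of dH1-depleted cells overlapped 41.7% and 45.7% (replicates 1 and 2) of the 247 regions called only after RNH, 34.2% and 49.2% of the 494 kept regions and 2.20% and 2.62% of the 2362 lost regions. Of all 5152 regions they overlapped 7.22% and 9.84%. Sites with a peak after RNH in untreated cells were therefore found after RNH in dH1-depleted cells more often than lost sites, in both replicates.

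The RNH-untreated lists of dH1-depleted cells differed from each other. That of replicate 1 overlapped 203 of the regions called only after RNH (82.2%), 483 of the kept regions (97.8%) and 1308 of the lost regions (55.4%), and 56.2% of all regions. That of replicate 2 overlapped 16 of the regions called only after RNH (6.48%), 404 of the kept regions (81.8%) and 1823 of the lost regions (77.2%), and 62.2% of all regions. The list of replicate 1 stands apart by its width, with a median of 228 bp and 9368 peaks, against 1233 bp and 5526 peaks in replicate 2. The part of this difference in the overlap with the regions called only after RNH was not tested. Of the named regions called only after RNH, 3L:23729724-23731452 had a peak in both RNH-treated lists of dH1-depleted cells. It also had one in their RNH-untreated list of replicate 1, but not in that of replicate 2. Other named regions of this class differed. The region 3R:21068952-21070935 had a peak in neither RNH-untreated list of these cells, while X:3308923-3315670 and 2RHet:1328342-1329615 had one in both. Not all of them had a peak in both RNH-treated lists.

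**Figure D5:**
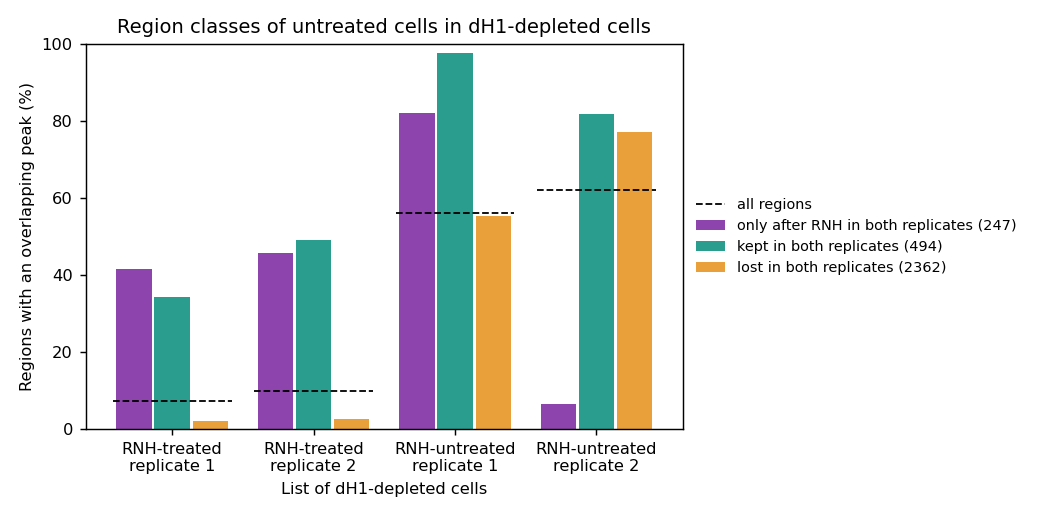
Share (%) of the regions called only after RNH (247), kept (494) and lost (2362) in both replicates of untreated cells that overlap a peak in each list of dH1-depleted cells; dashed lines give the share over all 5152 regions. Regions called only after RNH reach 82.2% in the RNH-untreated list of replicate 1 and 6.48% in that of replicate 2.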

How the data were processed

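The authors aligned reads to dm3 with Bowtie 0.12.5, keeping up to 10000 alignment sites of a read, and discarded PCR duplicates (sambamba v0.5.1). Peaks were called by MACS 1.4 (default *p*-value, 1e-05) in each S9.6 library, set against its replicate's input, without pooling. They deposited for each peak a position and a score. The score grows with depth and was used for ranks and filters within lists. Ratios of scores are uncorrected for depth. No read counts are in the lists, so depth is unknown.

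Paired values were compared with exact sign-flip tests (2-sided). Both libraries of a replicate share its number and input, which was taken as the pairing. As a check, differences between replicates 1 and 2 in log2 score at the 494 regions kept in both had a Pearson *r* of 0.20 between RNH-treated and RNH-untreated lists. Log2 odds used a constant of 0.5. Percentiles are ranks within a list. Wilson 95% intervals cover counting error only. Regions are peaks of the 4 lists merged at 1 bp of overlap, and the score of a region in a list is the highest of its peaks there. Members, classes and lists were chosen with earlier results of these data known. Named regions were, for each class in both replicates, the 5 of the arms, 3 of Het sequences or U and 2 of Uextra ranking highest by score percentile in their lower replicate, the widest region, and the peaks of highest score. Alternatives were a score of 100 and above, other sequences, overlap rules, lists of equal size, RNH-treated lists of the other or either replicate, chromosome 4 as heterochromatic, base pairs, no pairing, and leaving out a replicate. Python 3.11.15, NumPy 2.4.6, SciPy 1.17.1, pandas 2.3.3 and matplotlib 3.10.9 were used. On simulated lists, 100% of 300 lost, 120 kept and 80 RNH-only regions were recovered. The simulated sites lay far apart and were present in every list of their class, so this checks the code only. It does not measure how well the classes of the real lists are assigned. Input libraries, genes and repeats were not analysed here.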

Additional observations from a re-analysis of the deposited data

How the results depend on the processing

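The decrease in peak number kept its direction under each alternative run (log2 -1.51 to -4.85). So did the odds of kept peaks to lie on heterochromatic sequences, their score percentile and their agreement between replicates. The lower percentile of peaks called only after RNH also kept its direction. It was -16.1 percentile points in the main run, -3.60 without Uextra and -24.6 with lists of equal size. Comparisons of width and of the sequence of peaks called only after RNH did not keep theirs. Without Uextra, the log2 width ratio turned to 0.28 for RNH-treated to RNH-untreated lists and to 0.80 for kept to lost peaks, the difference in log2 odds turned to 0.83, 3.40% of peaks were kept, and 63 regions were kept and 56 called only after RNH in both replicates. On the arms alone, the width ratios were 0.96 and 1.55, 2.04% of peaks were kept, and the counts of regions were 27 and 13. Within Het sequences and within U, 2 alternatives chosen after seeing the data, the width ratio of kept to lost peaks was 2.08 and 0.29. At a score of 100 and above, the difference in log2 odds was 0.12, with opposite signs in the replicates, 20.0% of peaks were kept, 1036 regions were lost and 313 kept in both replicates. With RNH-untreated lists cut to the size of the RNH-treated ones, these values were 0.30, 38.8%, 382 and 295, and 430 regions were called only after RNH. The kept share of Het sequences was 18.7% at a score of 100 and above and 40.3% in lists of equal size, where U had 40.0% and the arms 8.84%. Counting peaks within 1000 bp as overlapping gave a kept share of 17.0%, and RNH-treated peaks of either replicate gave 17.4%. With a single replicate, 332 or 377 regions were called only after RNH. Without the run of peaks on 2L, also chosen after seeing the data, no direction changed, and 1.49% of arm peaks were kept. Without the replicate block (no pairing), values were the same by construction (-2.04 for log2 peak number) and the exact permutation *p* was 0.33, the smallest that 2 libraries against 2 allow. Agreement between replicates gave no value with a replicate left out or with either RNH-treated list. With the RNH-treated list of the other replicate, its value of 8.44 was also the same by construction. The cause of these changes was not tested beyond the sequences left out. Since depth is unknown, lost peaks cannot be told apart from peaks missed at lower depth.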
